A study of Arabidopsis thaliana with 7 samples.

Results

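The libraries labelled hot3-3 were set against the WT libraries, gene by gene. HOT3 codes for eIF5B1, a translation initiation factor of Arabidopsis thaliana, and hot3-3 is the T-DNA insertion line SAIL_1147_G06 in this gene. The comparison holds 2 hot3-3 and 2 WT libraries among the 7 of the series, and the other 3 are from hot3-2, a second T-DNA allele (SALK_124251). All seedlings were of the Col-0 background, were 18 days old, and came from a room at 23°C on a cycle of 16 h light and 8 h dark. Polyadenylated RNA of whole seedlings was sequenced. No agent was applied to any group. Nothing in the labels says that libraries of 1 genotype came from separate cultures, so that P values measure the spread between these libraries. Of 27655 genes in the count tables, 20795 had enough counts to be tested.

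eIF5B is a GTPase that helps the large ribosomal subunit join the small subunit at the start codon, the last step of translation initiation. In budding yeast it also acts in a test of newly made small subunits before they enter translation. Arabidopsis plants short of ribosomal proteins or of ribosome assembly factors are known for slow growth, pointed leaves and late flowering. RNA levels alone were measured here, and neither ribosomes nor proteins.

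The total count was 20059680 and 34696683 in the hot3-3 libraries, against 16015064 and 20628779 in the WT libraries. Log2 CPM (counts per gene brought to a common library total, after TMM scaling) of the libraries of 1 genotype correlated at 0.988 in hot3-3 and at 0.986 in WT, across genes. Both pairs of libraries held genes with a gap. Among all tested genes, 265 were at least 2-fold higher in hot3-3 replicate 2 than in replicate 1, and 218 in WT replicate 2 than in replicate 1. At 3-fold or more the numbers were 112 in hot3-3 and 38 in WT.

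HOT3 (AT1G76810, chromosome 1, 28830902 to 28836748, minus strand, TAIR10.1) was no lower in hot3-3 libraries, by label, than in WT. It had 195 and 271 CPM in hot3-3, against 171 and 169 CPM in WT, and this difference did not reach the threshold (log2 fold change 0.46 ± 0.15 SE, edgeR adjusted P = 0.0318). A count over the whole gene includes reads on either side of an insertion and so gives no check of the label. The value was 0.20 without hot3-3 replicate 2 and 0.67 without hot3-3 replicate 1. Of the other eIF5B genes, eIF5B3 (AT1G21160) had 57.6 and 51.4 CPM in hot3-3, against 25.0 and 28.9 CPM in WT. Its log2 fold change of 1.01 ± 0.13 lay at the limit of a call (edgeR adjusted P = 0.000179), and it was 0.91 without WT replicate 1. eIF5B2 (AT1G76720) had 10.5 and 10.1 CPM in hot3-3, against 7.50 and 7.80 CPM in WT, with no call. eIF5B4 (AT2G27700) had no count in either group.

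In hot3-3, 2002 genes were higher than in WT (9.63% of those tested) and 1020 were lower (4.91%). For a call, edgeR's adjusted P had to be below 0.01 and the log2 fold change 1 or more in either direction. Either way, 3022 genes were called (14.5%), and 5612 (27.0%) higher and 5004 (24.1%) lower genes passed an adjusted P of 0.05 with no limit on the fold. In every called gene both hot3-3 libraries lay outside both WT libraries, but so they did, in 1 direction or the other, in 38.7% (higher) and 37.0% (lower) of all tested genes. The rises reached further than the falls. At a log2 fold change of 4 or more there were 152 higher genes and at -4 or less 12 lower genes. The median log2 fold change was 1.54 among higher, -1.34 among lower and 0.01 among all tested genes.

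The higher genes had a lower median level in WT than all tested genes. Their median level was 18.9 CPM in hot3-3, against 6.10 CPM in WT, and 35 of them had no count in either WT library. The lower genes had a median of 8.39 CPM in hot3-3, against 22.1 CPM in WT. All tested genes had medians of 15.8 CPM in hot3-3 and 15.4 CPM in WT. A call of higher itself favours low WT values, and genes silent in WT were tested only through mutant libraries. The medians of called genes are therefore descriptions and were not tested. Genes with a single annotated exon made up 24.4% of higher and 17.1% of lower genes, beside 16.6% of all tested genes. Higher genes lay on all 5 nuclear chromosomes at shares of 9.09% to 10.2%. None of the 77 tested plastid genes was higher and 12 were lower.

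Of the 12 genes with the largest rise by the naming rule, most were barely detected in WT. AT1G30170, a DUF295 protein of unknown function, had 34.1 and 34.5 CPM in hot3-3 and no count in WT, at least 208-fold higher with 3 counts per library as the floor. AT2G18190, annotated as a P-loop nucleoside triphosphate hydrolase, had 52.1 and 46.5 CPM in hot3-3, against 0.246 and 0.0963 CPM in WT. AT4G05380, of the same annotated class, had 20.4 and 22.7 CPM in hot3-3, against 0.185 and 0.0963 CPM in WT. In each of these genes the hot3-3 libraries were close to each other and far from WT. The DEAD-box helicase gene AT1G71280 was at least 72.4-fold higher and the F-box gene AT2G24255 at least 62.3-fold higher. AT2G18720, annotated as an elongation factor EF1A or initiation factor IF2 gamma protein, had 15.7 and 15.3 CPM in hot3-3, against 0.369 and 0.0963 CPM in WT. CYP82G1 (AT3G25180), a cytochrome P450 known for making volatile homoterpenes, had 19.6 and 19.9 CPM in hot3-3, against 0.246 and 0.434 CPM in WT. AT5G24240, annotated as a phosphatidylinositol 4-kinase gamma-like gene, had 39.5 and 37.0 CPM in hot3-3, against 0.615 and 0.530 CPM in WT. The remaining 4 were AT2G05915, AT4G29200, ANAC044 and AT2G04070. AT2G05915 lies wholly inside AT2G05914 on the other strand, so that its reads cannot be told from that gene's if strand was ignored in counting.

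The falls were led by PCC1 (AT3G22231), named for its control by pathogens and the clock, with 0.433 and 1.28 CPM in hot3-3, against 135 and 99.5 CPM in WT. Its neighbour by locus number AT3G22235, a cysteine-rich transmembrane module gene, had 0.770 and 1.26 CPM in hot3-3, against 67.0 and 53.4 CPM in WT. The thionin gene AT1G66100, of a family of small antimicrobial peptides, had 0.770 and 0.942 CPM in hot3-3, against 42.6 and 48.5 CPM in WT. Both hot3-3 libraries were near 1 CPM for these genes, far below both WT libraries. AT3G16670, a pollen Ole e 1 allergen family gene, had 0.241 and 0.114 CPM in hot3-3, against 22 and 12.1 CPM in WT. PGL5 (AT5G24420), a 6-phosphogluconolactonase of the pentose phosphate pathway, had 1.01 and 0.799 CPM in hot3-3, against 17.2 and 16.1 CPM in WT. AT1G14250, a nucleoside phosphatase gene, fell by 4.29 ± 0.22 on the log2 scale. XTH25 (AT5G57550), a xyloglucan endotransglucosylase, had 0.337 and 0.799 CPM in hot3-3, but 3.14 and 16.7 CPM in WT, so that the size of its fall rests on WT replicate 2 (log2 fold change -4.03, and -2.38 without that library). ACD6, AT1G67865, AT1G07400, AT5G03350 and AT3G23480 made up the rest.

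**Figure D1:**
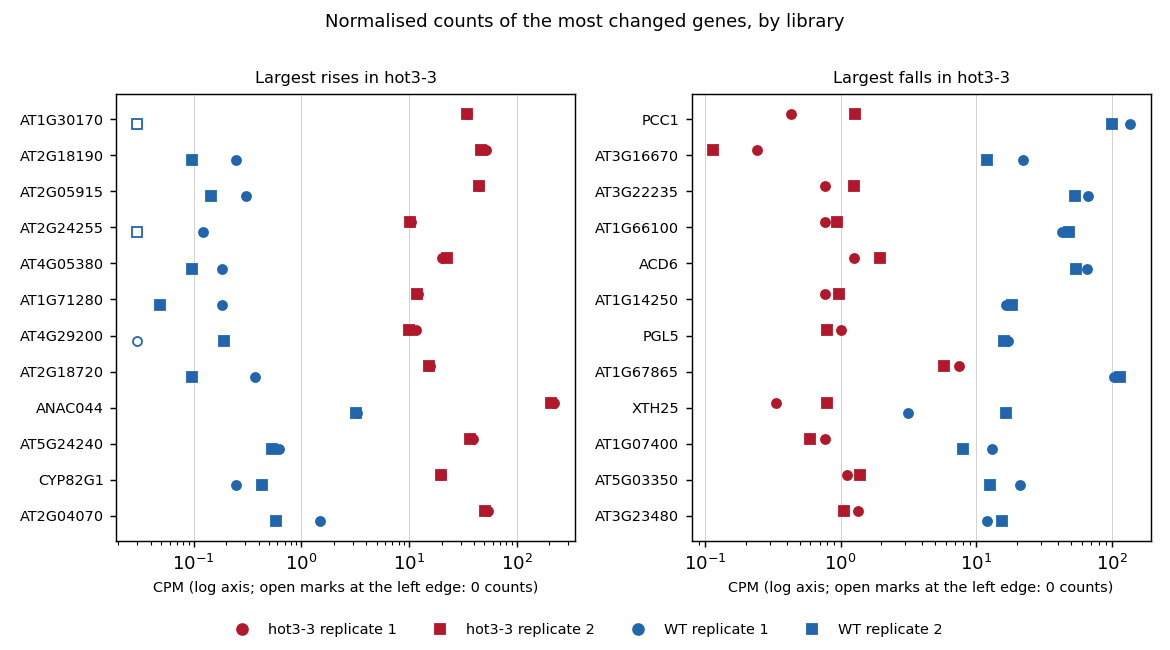
Normalised counts (CPM, log axis) of the 12 genes with the largest rise (left) and the 12 with the largest fall (right) by the naming rule, each point being 1 library of hot3-3 (red) or WT (blue), with open marks for 0 counts. All hot3-3 points lie to the right of all WT points for the rises and to the left for the falls, and XTH25 shows the widest gap between the WT libraries, at 3.14 and 16.7 CPM.

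DNA damage response genes were among the most raised. In plants the NAC factor SOG1 stands where p53 stands in animals, and it acts on ANAC044 and ANAC085, NAC factors that hold cells before division, on SMR inhibitors of cyclin-dependent kinases and on repair genes. Of 23 listed genes, all of them tested, 12 were higher (52.2%, beside 9.63% of all tested genes) and none was lower. The median log2 fold change was 1.52. ANAC044 (AT3G01600, chromosome 3, 229075 to 231517, plus strand) had 223 and 208 CPM in hot3-3, against 3.26 and 3.18 CPM in WT (log2 fold change 6.06 ± 0.11, edgeR adjusted P = 6.55e-09). ANAC085 (AT5G14490) had 3.66 and 3.85 CPM in hot3-3, against 0.123 and 0.0963 CPM in WT, at least 22.8-fold higher. GMI1 (AT5G24280), a repair gene, had 75.2 and 70.7 CPM in hot3-3, against 5.91 and 5.15 CPM in WT. PARP2 (AT4G02390), a poly(ADP-ribose) polymerase, had 48.6 and 46.5 CPM in hot3-3, against 7.63 and 5.97 CPM in WT. The libraries of each genotype agree closely for all of these.

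The same list holds SMR genes and a ribonucleotide reductase gene. SMR7 (AT3G27630) had 3.85 and 4.68 CPM in hot3-3, against 0.246 and 0.482 CPM in WT, and SMR4 (AT5G02220) and SMR5 (AT1G07500) rose by 2.51 and 3.55 on the log2 scale. CYCB1;1 (AT4G37490), a mitotic cyclin that also takes part in repair, had 33.5 and 30.9 CPM in hot3-3, against 7.32 and 4.91 CPM in WT. TSO2 (AT3G27060), the small subunit of ribonucleotide reductase, had 244 and 241 CPM in hot3-3, against 76.3 and 56.5 CPM in WT. SOG1 itself (AT1G25580) had 10.5 and 10.9 CPM in hot3-3, against 15.3 and 14.5 CPM in WT, a log2 fold change of -0.47 that did not reach the threshold. The kinase gene ATM (-0.21), which senses double-strand breaks, and ATR (0.23), which senses stalled forks, were not called, nor was KU80 (0.01), of end joining. Of 16 DNA replication genes only RNR1 (AT2G21790), the large subunit of ribonucleotide reductase, was called, with 123 and 122 CPM in hot3-3, against 54.7 and 42.7 CPM in WT. All 16 had a positive log2 fold change, with a median of 0.60. Among 39 tested genes annotated to DNA replication 9 were higher (23.1%, beside 9.63% of all tested genes) and none was lower, with a median of 0.45. Of 16 mitosis and cell cycle genes, which include the inhibitors KRP1, KRP2, SIM and SMR1, none was higher, and CYCD3;2 (AT5G67260), a cyclin of the division of leaf cells, was lower (27.9 and 29.1 CPM in hot3-3, against 59.0 and 57.3 CPM in WT).

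The windows before ANAC044, PARP2 and SMR7 are shown because each holds the published SOG1 binding motif, CTTNNNNNNNAAG. Each is the 250 bases before the annotated gene start, on the gene's own strand, from the RefSeq genome TAIR10.1. They lie at chr3:228825-229074 (plus strand), chr4:1049516-1049765 (plus strand) and chr3:10231568-10231817 (minus strand), and the capitals mark the motif.
ANAC044: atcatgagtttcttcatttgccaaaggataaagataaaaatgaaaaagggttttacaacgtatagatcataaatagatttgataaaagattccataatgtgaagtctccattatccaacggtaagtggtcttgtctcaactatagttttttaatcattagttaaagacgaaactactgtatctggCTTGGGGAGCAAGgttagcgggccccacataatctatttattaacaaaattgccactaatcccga
PARP2: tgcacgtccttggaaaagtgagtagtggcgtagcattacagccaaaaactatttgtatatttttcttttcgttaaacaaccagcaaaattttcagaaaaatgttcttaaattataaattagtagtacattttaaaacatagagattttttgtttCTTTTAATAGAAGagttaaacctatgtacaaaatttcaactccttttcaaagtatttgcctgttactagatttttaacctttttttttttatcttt
SMR7: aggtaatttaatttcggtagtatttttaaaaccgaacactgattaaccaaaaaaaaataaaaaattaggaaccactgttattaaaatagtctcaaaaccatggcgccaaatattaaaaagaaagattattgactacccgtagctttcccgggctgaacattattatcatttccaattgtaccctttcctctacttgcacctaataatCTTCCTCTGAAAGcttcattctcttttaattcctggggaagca
The match begins 65 bases before the start of ANAC044, 96 before PARP2 and 43 before SMR7. Among the DNA damage genes 6 of 23 windows (26.1%) held the motif on either strand, beside 9.04% of all 20695 windows of tested genes. A match of letters is no evidence of binding.

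Genes of the mitochondrial retrograde response were among the higher genes. When respiration is disturbed, membrane-bound NAC factors such as ANAC013 and ANAC017 move to the nucleus. There they act on a dysfunction motif before genes such as the alternative oxidase AOX1A. The form of the motif sought here was CTTGNNNNNCAAG. Of 24 list entries 19 could be matched by name and locus and were kept. Of these 19 genes 17 were tested, 9 were higher (52.9%, beside 9.63% of all tested genes) and none was lower. The median log2 fold change was 1.2. TIM17-1 (AT1G20350), a part of the inner membrane import channel, had 39.1 and 42.1 CPM in hot3-3, against 0.984 and 1.49 CPM in WT (log2 fold change 5.0 ± 0.19, edgeR adjusted P = 5.71e-07). AOX1A (AT3G22370) had 201 and 213 CPM in hot3-3, against 106 and 75.1 CPM in WT, and AOX1C (AT3G27620) had 7.32 and 7.88 CPM, against 0.554 and 0.289 CPM in WT. NDA1 (AT1G07180), an alternative NADH dehydrogenase, had 23.6 and 23.7 CPM in hot3-3, against 7.87 and 12 CPM in WT. In these genes the hot3-3 libraries lie close together.

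That was not so for 2 others. OM66 (AT3G50930), an outer membrane AAA ATPase, had 60.1 and 175 CPM in hot3-3, against 8.00 and 8.77 CPM in WT. DIC2 (AT4G24570), a dicarboxylate carrier, had 65.3 and 316 CPM in hot3-3, against 7.75 and 8.14 CPM in WT. Either hot3-3 library alone lay above WT for both genes, by far more in replicate 2. Among 65 tested genes for mitochondrial carriers and import 12 were higher (18.5%) and 2 lower (3.08%), beside 9.63% and 4.91% of all tested genes. The import genes TOM7-2 (AT1G64220; 11.5 and 13.2 CPM in hot3-3, against 0.861 and 1.16 CPM in WT) and TIM13 (AT1G61570; 89.4 and 86.8 CPM in hot3-3, against 23.1 and 20.9 CPM in WT) had the smallest P values after TIM17-1. The median of this family was 0.18 and that of all tested genes 0.01. The mitochondrial chaperone gene mtHsc70-1 (AT4G37910) had 345 and 345 CPM in hot3-3, against 117 and 102 CPM in WT.

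The mitochondrial dysfunction motif stood before several of the most raised genes, in whatever list they belonged. Examples chosen after their values were seen are NUC-L2 (AT3G18610), a nucleolin gene, AT2G21640, annotated as a marker of oxidative stress, and AT1G17960, annotated as a threonyl-tRNA synthetase. NUC-L2 had 62.4 and 60.0 CPM in hot3-3, against 1.97 and 1.45 CPM in WT. AT2G21640 had 62.9 and 63.9 CPM in hot3-3, against 4.06 and 4.09 CPM in WT. AT1G17960 had 55.9 and 48.3 CPM in hot3-3, against 1.72 and 0.915 CPM in WT. Their windows, read as above, lie at chr3:6407947-6408196 (minus strand), chr2:9254128-9254377 (plus strand) and chr1:6183807-6184056 (minus strand), with the motif in capitals.
NUC-L2: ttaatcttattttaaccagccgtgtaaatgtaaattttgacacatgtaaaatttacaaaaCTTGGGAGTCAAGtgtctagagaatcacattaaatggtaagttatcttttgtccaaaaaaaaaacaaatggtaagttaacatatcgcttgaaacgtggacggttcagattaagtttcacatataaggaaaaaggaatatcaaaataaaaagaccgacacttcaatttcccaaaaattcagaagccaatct
AT2G21640: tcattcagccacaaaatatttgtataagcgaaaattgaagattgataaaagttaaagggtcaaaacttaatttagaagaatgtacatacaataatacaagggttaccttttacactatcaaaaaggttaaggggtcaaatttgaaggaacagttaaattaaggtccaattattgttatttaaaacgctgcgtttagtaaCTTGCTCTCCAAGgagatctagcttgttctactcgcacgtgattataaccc
AT1G17960: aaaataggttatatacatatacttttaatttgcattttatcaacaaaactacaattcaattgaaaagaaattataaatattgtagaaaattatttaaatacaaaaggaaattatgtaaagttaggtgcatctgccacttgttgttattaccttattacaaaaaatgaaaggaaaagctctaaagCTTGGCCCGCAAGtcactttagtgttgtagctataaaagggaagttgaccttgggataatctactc
The motif begins 190 bases before the start of NUC-L2, 51 before AT2G21640 and 66 before AT1G17960. The capitals in the ANAC044 window above are also a dysfunction motif, since every match to it has the letters of the SOG1 motif as well.

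Over all windows, the share that held the dysfunction motif was larger among genes with larger rises. It was 14 of 152 (9.21%) at a log2 fold change of 4 or more, 6 of 121 (4.96%) at 3 to 4, 4 of 314 (1.27%) at 2 to 3, and 9 of 1415 (0.636%) at 1 to 2. Among genes not called it was 87 of 17689 (0.492%), and among all tested genes 0.604%. The SOG1 motif was in 20.4%, 16.5%, 9.24% and 9.47% of the same bins, in 8.84% of genes not called, and the shared letters of both motifs enter these shares. Of the 152 genes in the top bin 91 had 3 counts or fewer in both WT libraries, so that the size of their fitted change is uncertain. Such genes passed the filter on counts only through mutant libraries, so that the limit given below for the DUF295 genes holds for the shares of this bin. These shares are descriptions of the sequence and were not tested.

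**Figure D2:**
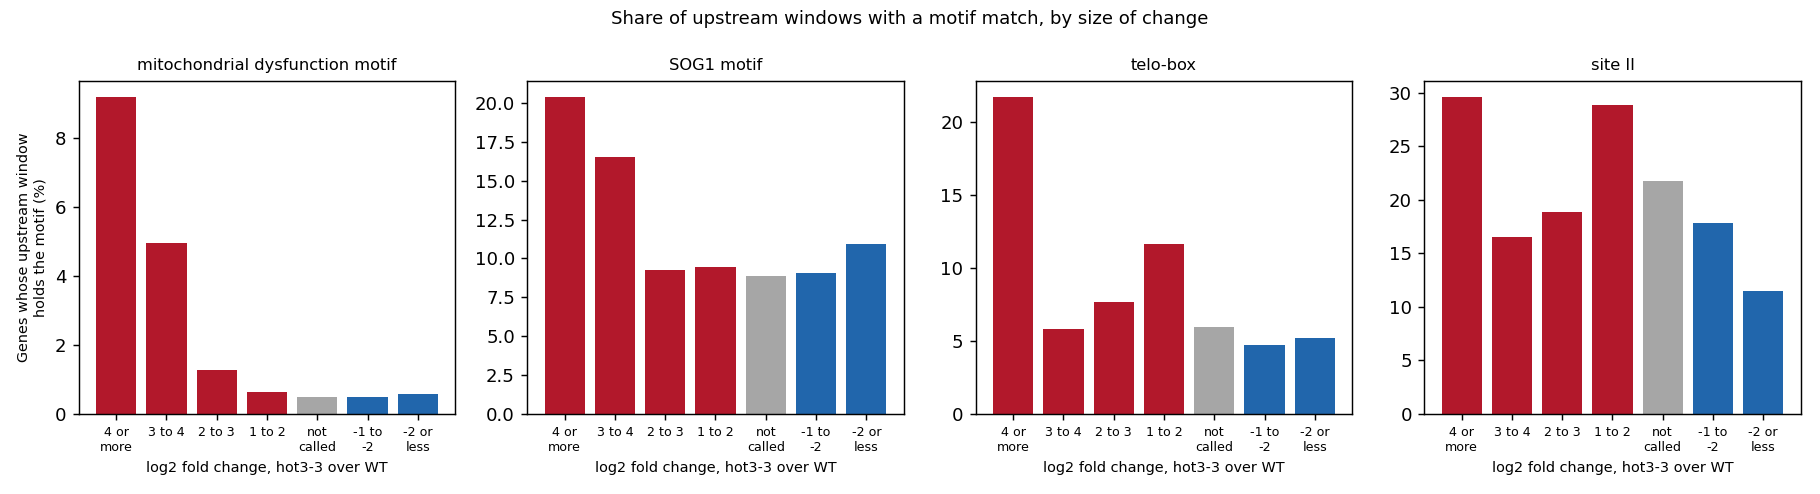
Share of genes (%) whose 250-base window holds a motif on either strand, by log2 fold change of hot3-3 over WT (red, higher; grey, not called; blue, lower), with an axis of its own for each motif. The dysfunction motif runs at 9.21% among the largest rises and at 0.492% among genes not called, while the telo-box runs at 21.7%, 5.79%, 7.64% and 11.6% from the largest rises to the smallest and at 5.91% among genes not called.

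Ribosome assembly genes rose together. Making a ribosome takes place largely in the nucleolus, where RNA polymerase I copies the rRNA precursor, small nucleolar RNPs modify it and many factors trim and export it. Of 38 list entries 25 could be matched by name and locus and were kept. Of these 25 genes 19 were higher (76.0%, beside 9.63% of all tested genes) and none was lower. All 25 had a positive log2 fold change, and the median was 1.35. The box C/D methylation core FIB2 (AT4G25630) had 179 and 187 CPM in hot3-3, against 37.3 and 27.4 CPM in WT, and NOP56 (AT1G56110) had 404 and 398 CPM, against 96.0 and 77.0 CPM in WT. The box H/ACA pseudouridine core CBF5 (AT3G57150) had 431 and 427 CPM in hot3-3, against 101 and 79.7 CPM in WT, and NOP10 (AT2G20490) had 102 and 102 CPM, against 25.3 and 22.5 CPM in WT. ENP1 (AT1G31660) and NOB1 (AT5G41190), which act on the late small subunit, rose by 1.74 and 1.35 on the log2 scale. NRPA1 (AT3G57660), the largest subunit of RNA polymerase I, had 63.5 and 63.7 CPM in hot3-3, against 30.4 and 25.5 CPM in WT. The 25 genes summed to 4080 and 4110 CPM in hot3-3, against 1390 and 1260 CPM in WT.

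Among 294 tested nuclear genes taken as cytosolic ribosomal proteins by their product names, 180 were higher (61.2%) and 7 lower (2.38%). Their median was 1.2, and the shares of all tested genes were 9.63% and 4.91%. A product name need not give the compartment, so organellar proteins may be among them. They summed to 84400 and 86500 CPM in hot3-3, against 45900 and 40400 CPM in WT. AT3G09680, with 15.2 and 18.9 CPM in hot3-3, against 0.492 and 0.289 CPM in WT, rose by 5.48 ± 0.23 on the log2 scale. HLL (AT1G17560), which came into this family by its product name and codes for an organellar protein, had 30.8 and 32.6 CPM in hot3-3, against 6.77 and 6.94 CPM in WT. Counts of near-identical ribosomal protein genes are uncertain, since read pairs that fit several copies were left out. Of 51 initiation factor genes 12 were higher (23.5%) and 2 lower (3.92%). eIF6A (AT3G55620), whose yeast counterpart keeps large subunits from joining too early, had 252 and 256 CPM in hot3-3, against 68.5 and 66.1 CPM in WT. TIF3C2 (AT3G22860), a second gene for an eIF3 subunit, had 13.7 and 11.3 CPM in hot3-3, against 0.246 and 0.289 CPM in WT. Of 47 elongation factor genes 12 were higher and 1 lower, of 66 DEAD-box helicase genes 12 and 1, and of 53 aminoacyl-tRNA synthetase genes 6 and none. None of 11 tested nuclear import and export receptor genes was called. Among 258 pentatricopeptide repeat genes, which serve organellar RNA, 9 were higher (3.49%) and 6 lower (2.33%).

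Ribosome genes of plants are known for 2 short promoter elements, the telo-box (AAACCCT) and site II (TGGGCC or TGGGCT). The windows of NOP56, at chr1:20986953-20987202 (minus strand), and NOP10, at chr2:8831431-8831680 (plus strand), are shown as examples chosen after their values were seen, with both elements in capitals wherever they occur on either strand.
NOP56: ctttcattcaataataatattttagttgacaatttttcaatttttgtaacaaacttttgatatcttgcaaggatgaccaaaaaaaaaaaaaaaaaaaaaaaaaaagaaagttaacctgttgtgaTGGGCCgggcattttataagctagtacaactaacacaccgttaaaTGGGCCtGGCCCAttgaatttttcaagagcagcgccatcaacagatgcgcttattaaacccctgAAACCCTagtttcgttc
NOP10: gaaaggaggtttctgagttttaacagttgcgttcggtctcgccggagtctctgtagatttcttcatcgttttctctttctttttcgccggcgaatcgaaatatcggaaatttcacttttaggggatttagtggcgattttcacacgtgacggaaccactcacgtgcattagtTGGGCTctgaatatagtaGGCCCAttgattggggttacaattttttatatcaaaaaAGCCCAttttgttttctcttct
NOP56 has 4 matches, at 126, 81 and 74 bases (site II) and 17 bases (telo-box) before the start, and NOP10 has site II at 78, 60 and 22 bases. Site II was in 175 of 294 ribosomal protein windows (59.5%) and in 13 of 25 ribosome assembly windows (52.0%), beside 22% of all tested genes. Within the ribosomal protein family it was in 127 of 180 higher genes (70.6%), 42 of 107 genes not called (39.3%) and 6 of 7 lower genes. The telo-box was in 19.4% of ribosomal protein windows and 6.39% of all windows. Both elements together were in 5.54% of higher, 0.996% of lower and 2.15% of all tested genes.

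Many nuclear genes for photosynthesis lay lower. Of 44 genes for photosystem, antenna and electron transport proteins 13 were lower (29.5%, beside 4.91% of all tested genes) and none was higher. In 40 the log2 fold change was negative, and the median was -0.76. PSBR (AT1G79040), of the oxygen-evolving photosystem, had 1990 and 2050 CPM in hot3-3, against 5160 and 5140 CPM in WT (log2 fold change -1.35 ± 0.08, edgeR adjusted P = 2.9e-06). PSAN (AT5G64040), a subunit of photosystem I, had 495 and 523 CPM in hot3-3, against 1290 and 1270 CPM in WT. NPQ4 (AT1G44575), which lets leaves shed excess light, had 550 and 613 CPM in hot3-3, against 1290 and 1110 CPM in WT. Of 17 Calvin cycle genes 6 were lower (35.3%) and none higher (median -0.89). RPE (AT5G61410), ribulose phosphate epimerase, had 238 and 247 CPM in hot3-3, against 666 and 607 CPM in WT. CP12-2 (AT3G62410), which holds enzymes of the cycle inactive in the dark, had 149 and 169 CPM in hot3-3, against 514 and 396 CPM in WT. In whole seedlings, fewer leaf cells and less RNA per cell cannot be told apart.

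Chlorophyll synthesis genes gave few calls, all of them lower, at 13.3% of the listed genes beside 4.91% of all tested genes. Of 15 listed genes 2 were lower, CHLM (AT4G25080; 112 and 113 CPM in hot3-3, against 293 and 291 CPM in WT) and PORA (AT5G54190; 0.963 and 0.857 CPM in hot3-3, against 3.94 and 7.08 CPM in WT), and the median was -0.07. Among 22 tested genes annotated to the chlorophyll biosynthetic process 3 were lower (13.6%) and none was higher, with a median of -0.55. By level, the largest falls included RBCS3B, the Rubisco small subunit (2010 and 2220 CPM in hot3-3, against 5860 and 4970 CPM in WT), and CA1, carbonic anhydrase (869 and 1000 CPM in hot3-3, against 4190 and 3100 CPM in WT). SHM1 and GS2, of photorespiration, were also among them, at 822 and 896 CPM in hot3-3 against 2240 and 2050 CPM in WT for SHM1. The LHB1B and RBCS genes have near-identical copies, which makes their counts uncertain, and AT1G55673 lies inside PSAG on the other strand with nearly the same values. Among plastid-encoded genes, which are poorly caught in polyadenylated RNA, the summed level was 2750 and 3050 CPM in hot3-3, against 4590 and 4700 CPM in WT. The largest rises by level were catalase 3 (AT1G20620; 5540 and 5200 CPM in hot3-3, against 2140 and 2650 CPM in WT), TGG2, a myrosinase (1700 and 1590 CPM in hot3-3, against 435 and 529 CPM in WT), ketol-acid reductoisomerase, and 7 genes of translation or the nucleolus.

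**Figure D3:**
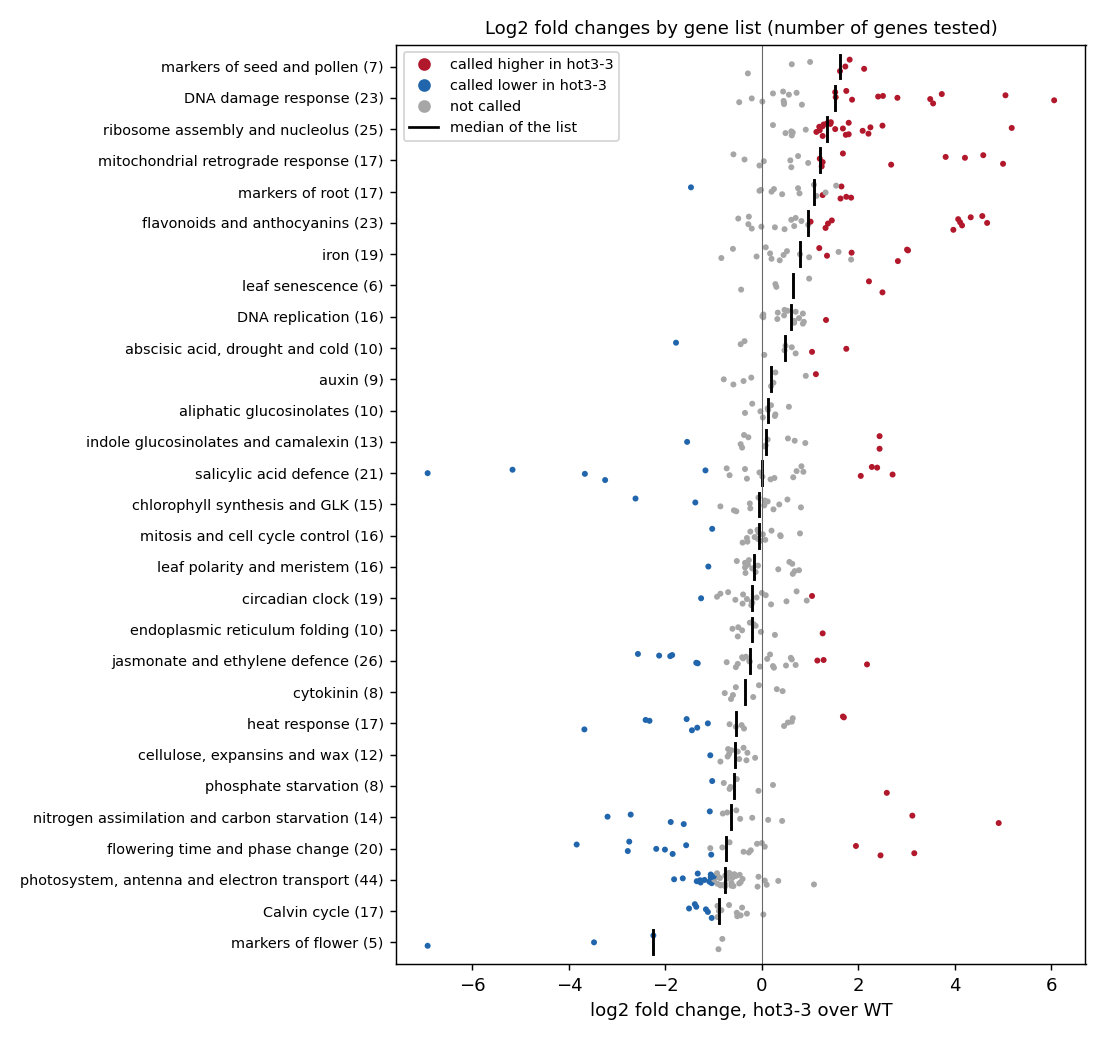
Log2 fold changes of hot3-3 over WT for each tested gene of 29 lists, with the number tested in brackets, the median as a black bar, and calls in red (higher) or blue (lower). DNA damage, ribosome assembly and mitochondrial genes lie mostly to the right (medians 1.52, 1.35 and 1.2), and photosystem and Calvin cycle genes to the left (medians -0.76 and -0.89).

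Some heat response genes were lower. Of 17 tested genes 7 were lower (41.2%), 2 were higher (11.8%) and 8 were not called (median -0.54). Of all tested genes 4.91% were lower and 9.63% higher. The summed level of the list was 299 and 362 CPM in hot3-3, against 360 and 308 CPM in WT. Of 106 tested genes annotated as heat shock proteins 8 were higher and 9 lower (7.55% and 8.49%), with a median of -0.01. HSFA2 (AT2G26150, chromosome 2, 11135624 to 11137792, plus strand), a heat-induced transcription factor that prolongs the response, had 0.337 and 0.685 CPM in hot3-3, against 8.18 and 5.97 CPM in WT (log2 fold change -3.68 ± 0.32, edgeR adjusted P = 1.83e-05). HSP101 (AT1G74310), the disaggregase that seedlings need to survive heat, had 7.32 and 7.05 CPM in hot3-3, against 23.3 and 16.0 CPM in WT. HSP90.1 (AT5G52640) had 12.7 and 11.9 CPM in hot3-3, against 41.1 and 31.6 CPM in WT. The repressor HSFB2A (AT5G62020) was higher, at 20.1 and 35.8 CPM in hot3-3, against 8.12 and 9.44 CPM in WT, as was HSP18.2 (AT5G59720) at a low level. Seedlings had not been heated, so these are basal levels. Among 10 genes of folding in the endoplasmic reticulum only BZIP60 (AT1G42990), a transcription factor of that response, was called (66.2 and 84.8 CPM in hot3-3, against 32.5 and 30.8 CPM in WT), and its target BIP3 was near 0 in both groups.

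The window of HSFA2, at chr2:11135374-11135623 (plus strand), holds a heat shock element (GAANNTTCNNGAA) 88 bases before the start, in capitals here.
HSFA2: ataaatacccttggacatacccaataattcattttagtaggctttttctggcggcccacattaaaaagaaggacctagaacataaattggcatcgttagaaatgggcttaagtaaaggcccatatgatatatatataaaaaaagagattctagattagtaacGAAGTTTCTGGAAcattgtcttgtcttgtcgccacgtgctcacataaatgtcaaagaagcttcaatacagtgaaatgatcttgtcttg
The element was in 5 of 17 heat response windows (29.4%), beside 82 of 20695 windows of all tested genes (0.396%). Of those 82 genes 70 were not called, and the rest were called in both directions.

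Flavonoid and anthocyanin genes were higher in their late steps. Chalcone synthase opens the path, and dihydroflavonol reductase and anthocyanidin synthase lead to the pigments, under the MYB factor PAP1 and the bHLH factor TT8. Of 23 tested genes 11 were higher (47.8%, beside 9.63% of all tested genes) and none lower, with a median of 0.96. DFR (AT5G42800) had 15.6 and 22.6 CPM in hot3-3, against 1.23 and 0.723 CPM in WT (log2 fold change 4.33 ± 0.27, edgeR adjusted P = 3.82e-06). LDOX (AT4G22880), anthocyanidin synthase, had 13.8 and 18.4 CPM in hot3-3, against 1.41 and 0.530 CPM in WT. UF3GT (AT5G54060) and 5MAT (AT3G29590), which add sugar and malonyl groups, and TT19 (AT5G17220), needed for storage in the vacuole, rose by 4.57, 4.15 and 4.07 on the log2 scale. The early step TT4 (AT5G13930), chalcone synthase, changed less, with 130 and 153 CPM in hot3-3, against 62.6 and 41.5 CPM in WT. PAP1 (AT1G56650) had 9.53 and 10.2 CPM in hot3-3, against 0.861 and 0.434 CPM in WT, and TT8 (AT4G09820) had 5.78 and 6.85 CPM, against 0.246 and 0.241 CPM in WT. The repressor MYBL2 (AT1G71030) was higher too, at 110 and 108 CPM in hot3-3, against 36.8 and 50.3 CPM in WT.

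Some iron genes were higher. Roots short of iron raise IRT1, the iron transporter, FRO2, the ferric reductase, and bHLH factors of subgroup Ib. Of 19 genes 6 were higher (31.6%, beside 9.63% of all tested genes), none was lower and 13 were not called (median 0.79). IRT1 (AT4G19690) had 90.1 and 73.7 CPM in hot3-3, against 9.41 and 10.6 CPM in WT (log2 fold change 3.03 ± 0.19, edgeR adjusted P = 3.83e-06). FRO2 (AT1G01580) had 31.2 and 26.2 CPM in hot3-3, against 4.61 and 3.56 CPM in WT. CYP82C4 (AT4G31940) and F6'H1 (AT3G13610), of the synthesis of iron-binding coumarins, rose by 3.01 and 1.35 on the log2 scale. BHLH38 (AT3G56970) had 18.0 and 20.1 CPM in hot3-3, against 6.46 and 4.24 CPM in WT. The storage genes FER1 (74.8 and 87.1 CPM in hot3-3, against 126 and 120 CPM in WT) and FER4 (16.7 and 18.8 CPM in hot3-3, against 33.0 and 31.0 CPM in WT) lay below WT in both libraries, with log2 fold changes of -0.60 and -0.84 that were not called. IRT1 and FRO2 are root genes, and root markers differed between the groups, as given below.

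Among the flowering regulators called, 3 of 4 repressors were higher and every promoter was lower. Flowering is promoted by FT, SOC1, FUL and the SPL factors of phase change, and held back by FLC and the TEMPRANILLO factors. Of 20 tested genes 3 were higher (15.0%) and 8 lower (40.0%), beside 9.63% and 4.91% of all tested genes. The repressor FLC (AT5G10140) had 22.4 and 21.2 CPM in hot3-3, against 5.41 and 5.83 CPM in WT (log2 fold change 1.95 ± 0.12, edgeR adjusted P = 3.51e-06). TEM1 (AT1G25560) had 230 and 273 CPM in hot3-3, against 31.3 and 59.5 CPM in WT, and TEM2 (AT1G68840) had 235 and 373 CPM, against 28.5 and 39.5 CPM in WT. SOC1 (AT2G45660) had 20.1 and 18.1 CPM in hot3-3, against 72.0 and 80.9 CPM in WT. FUL (AT5G60910) had 0.578 and 0.542 CPM in hot3-3, against 9.90 and 6.31 CPM in WT. SPL3 (AT2G33810), which rises as plants leave the juvenile phase, had 2.98 and 2.94 CPM in hot3-3, against 17.0 and 23.5 CPM in WT. FT, CO, SPL4 and SPL5 fell by 1.85, 1.57, 1.05 and 2.19 on the log2 scale. The exception among the repressors was MAF5 (AT5G65080), a relative of FLC that represses flowering, with 1.40 and 0.799 CPM in hot3-3, against 7.20 and 6.98 CPM in WT.

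**Figure D4:**
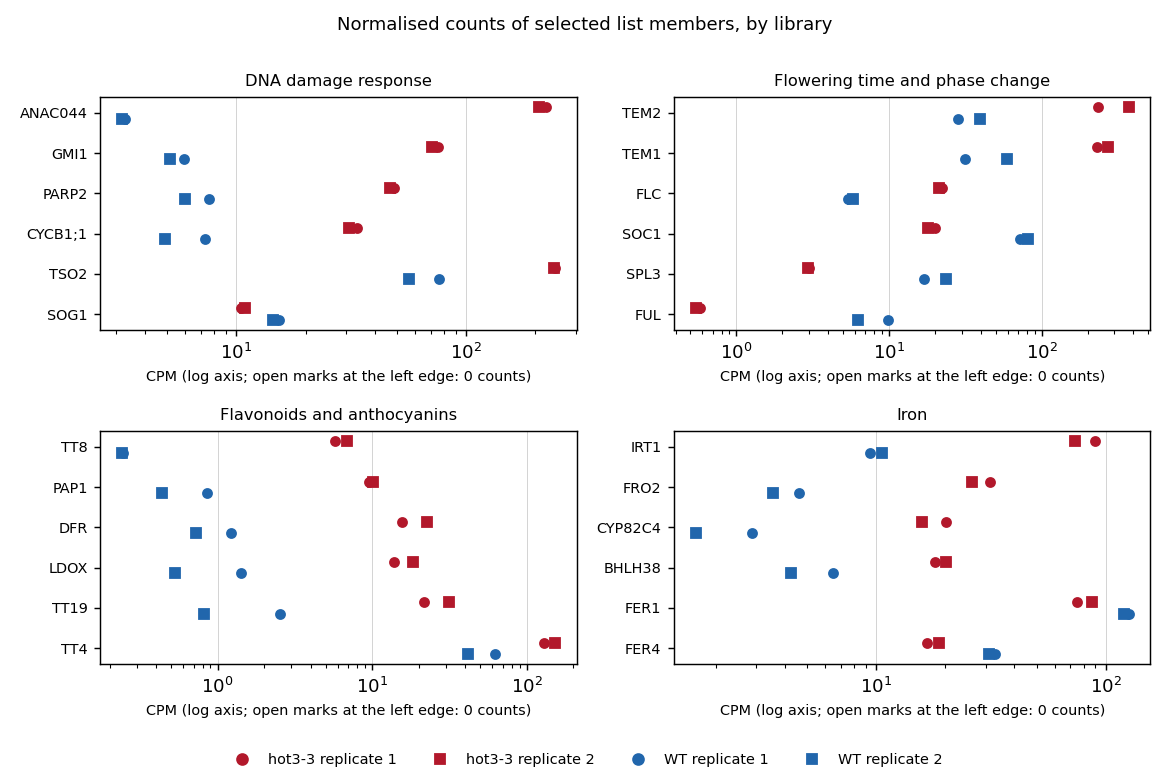
Normalised counts (CPM, log axis) of 6 members each of the DNA damage, flowering, flavonoid and iron lists in every hot3-3 (red) and WT (blue) library. ANAC044 lies at 223 and 208 CPM in hot3-3 and near 3 CPM in WT, whereas SOC1, SPL3, FUL, FER1, FER4 and SOG1 lie lower in both hot3-3 libraries.

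Defence genes were called in both directions. Of 21 tested salicylic acid genes 4 were higher and 5 lower (median 0.01), and of 26 jasmonate and ethylene genes 3 were higher (11.5%) and 6 lower (23.1%), beside 9.63% and 4.91% of all tested genes. The median of the second list was -0.25, but 0.33 without WT replicate 2 and 0.07 without hot3-3 replicate 1. The SA marker PR1 (AT2G14610) had 6.21 and 4.74 CPM in hot3-3, against 1.23 and 0.482 CPM in WT, and SAG101 (AT5G14930), a partner of EDS1 in immunity, had 42.8 and 60.1 CPM, against 9.84 and 9.83 CPM in WT. WRKY54 (AT2G40750) had 0.241 and 0.6 CPM in hot3-3, against 7.57 and 4.29 CPM in WT, and ACD6 (AT4G14400), an ankyrin protein that feeds forward on salicylic acid, had 1.25 and 1.94 CPM, against 65.9 and 54.1 CPM in WT. The jasmonate-induced storage protein VSP2 (AT5G24770) had 36.9 and 41.8 CPM in hot3-3, against 143 and 202 CPM in WT, and PDF1.2 (AT5G44420), a defensin, had 0.433 and 0.685 CPM, against 3.63 and 3.32 CPM in WT. LOX4 (AT1G72520), a lipoxygenase of jasmonate synthesis, had 36.9 and 73.0 CPM in hot3-3, against 7.81 and 16.3 CPM in WT. Of the indole glucosinolate genes MYB51 and CYP81F2, a regulator and an enzyme, both rose by 2.44 on the log2 scale. No aliphatic glucosinolate gene was called out of 10.

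Families differed in their share of higher genes. Of 56 WRKY genes 21 were higher and 2 lower, of 67 NAC genes 22 and 2, and of 63 peroxidase genes 21 and 2, beside 9.63% and 4.91% of all tested genes. WRKY53 (AT4G23810), a regulator of senescence, had 56.1 and 75.6 CPM in hot3-3, against 14.5 and 13.8 CPM in WT. ANAC087 (AT5G18270) had 52.7 and 77.5 CPM in hot3-3, against 2.83 and 2.94 CPM in WT, and NAC103 (AT5G64060) had 12.4 and 15.1 CPM, against 0.923 and 0.674 CPM in WT. The peroxidase gene PRXCB (AT3G49120) had 637 and 503 CPM in hot3-3, against 112 and 122 CPM in WT. GSTU9 (AT5G62480), a glutathione S-transferase, had 41.1 and 36.0 CPM in hot3-3, against 3.01 and 3.37 CPM in WT, and 9 of 50 genes of its family were higher and none lower. Cytochromes P450 (26 higher and 12 lower of 173) and ERF/AP2 factors (11 and 7 of 52) held calls in both directions. UDP-glycosyltransferases (10.5% higher), disease resistance proteins (11.3%) and receptor-like kinases (8.93%) were near the share of all tested genes.

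Families of growth moved unevenly. Of 62 SAUR genes, small auxin-induced proteins of cell expansion, 15 were lower (24.2%) and 4 higher (6.45%), with a median of -0.42. Of all tested genes 4.91% were lower and 9.63% higher. Among 9 auxin pathway genes GH3.5 alone was called, higher. Of 51 expansin and xyloglucan endotransglucosylase genes 13 were higher (25.5%) and 6 lower (11.8%). XTH28 (AT1G14720) had 216 and 202 CPM in hot3-3, against 64.7 and 56.5 CPM in WT, and EXPA10 (AT1G26770), an expansin, had 26.8 and 31.7 CPM, against 117 and 80.3 CPM in WT. All 12 genes of the cellulose, expansin and wax list had negative log2 fold changes, with 1 call. Of 16 leaf polarity and meristem genes AS1 (AT2G37630), a MYB factor that keeps KNOX genes off in leaves, was the only call, with 48.7 and 43.7 CPM in hot3-3, against 113 and 86.9 CPM in WT. The KNOX genes KNAT1, KNAT6 and STM had log2 fold changes of 0.63, 0.64 and 0.68, short of a call. Core histone genes gave 1 call among 46 and cytokinin genes none among 8.

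Of 19 clock genes RVE1 was higher (5.26%) and LNK2 lower (5.26%), beside 9.63% and 4.91% of all tested genes. TOC1, an evening gene, had 177 and 192 CPM in hot3-3, against 183 and 186 CPM in WT. Of 14 genes of nitrogen and carbon supply 2 were higher (14.3%) and 5 lower (35.7%), with a median of -0.63. Of all tested genes 9.63% were higher and 4.91% lower. ASN1 (AT3G47340), the dark-induced asparagine synthetase, had 35.8 and 35.3 CPM in hot3-3, but 114 and 537 CPM in WT, a wide gap between WT libraries. SEN1 (AT4G35770), another dark-induced gene, had 53.5 and 44.5 CPM in hot3-3, against 241 and 401 CPM in WT. NRT2.1 (AT1G08090), a root nitrate transporter, had 3.61 and 1.80 CPM in hot3-3, against 0.123 and 0.0482 CPM in WT, at least 16.4-fold higher. Of 8 phosphate starvation genes PS2 was higher and SQD2 lower. Of 10 abscisic acid genes 2 were higher and 1 lower, among them KIN1 (AT5G15960), a cold and abscisic acid marker, with 28.4 and 30.5 CPM in hot3-3, against 7.50 and 9.92 CPM in WT. Of 6 tested senescence genes 2 were higher, and SAG13 (AT2G29350), a short-chain dehydrogenase used as an early marker, had 17.4 and 14.5 CPM in hot3-3, against 2.89 and 2.75 CPM in WT.

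Markers of other organs and cell types differed between the genotypes. Of 17 root markers, all of them tested, 5 were higher (29.4%) and 1 lower (5.88%), beside 9.63% and 4.91% of all tested genes. Their median log2 fold change was 1.08, with 14 positive and 3 negative values. They summed to 2480 and 2360 CPM in hot3-3, against 1380 and 1480 CPM in WT. The myrosinase PYK10 made up most of that sum, at 2290 and 2190 CPM in hot3-3, against 1260 and 1350 CPM in WT, and THAS1, a root triterpene synthase, had 63.9 and 63.8 CPM, against 18.6 and 21.9 CPM in WT. The endodermis and stele regulators SCR and SHR had log2 fold changes of -0.05 and -0.02. The part of root share in the rises of IRT1, FRO2, NRT2.1 and the peroxidases was not tested. Of 8 flower markers 5 were tested and 3 were lower, summing to 3.51 and 3.60 CPM in hot3-3, against 9.78 and 8.24 CPM in WT. AP1, which marks floral meristems, had no count in hot3-3 and 0.861 and 0.578 CPM in WT, at least 6.27-fold lower, and AP3, AG and SEP2 were too low to test. Of 9 seed and pollen markers 7 were tested and 4 were higher, summing to 229 and 393 CPM in hot3-3, against 55.5 and 129 CPM in WT. The seed storage genes CRA1 (138 and 224 CPM in hot3-3, against 29.0 and 73.5 CPM in WT) and CRU3 (73.3 and 133 CPM in hot3-3, against 19.6 and 42.4 CPM in WT) made up most of it, while the pollen markers VGD1 and AGP11 were at or near 0 in every library. Both storage genes lost their call without WT replicate 1 (log2 fold changes 1.3 and 1.29) and without hot3-3 replicate 2 (1.42 and 1.23).

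Some families were looked at after their values had been seen and are given as values only. Of 69 genes annotated as DUF295 proteins, 19 passed the filter on counts, and 12 of these were higher and 1 lower in hot3-3. Since a gene silent in WT passed the filter only where it was on elsewhere, this share is not a result on the family. AT5G53230 had 5.58 and 5.94 CPM in hot3-3, against 0.0615 and 0 CPM in WT, at least 34.9-fold higher, and its neighbour AT5G53240 on the same strand was at least 4.37-fold higher. AT1G30160, which overlaps AT1G30170 tail to tail by 57 bases, had 11.5 and 11.3 CPM in hot3-3, against 1.17 and 0.626 CPM in WT. AT5G55150 had 2.74 and 5.31 CPM in hot3-3, against 0.369 and 0.0482 CPM in WT. AT1G05540 was the lower one, at 0.818 and 0.514 CPM in hot3-3, against 3.01 and 2.26 CPM in WT. The dysfunction motif was in 4 of the 19 windows (21.1%), those of AT5G53230, AT5G53240, AT5G55150 and AT5G55270. This share has the same limit, since the 19 are the genes that passed the filter.

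MATE transporters carry toxins and metabolites out of cells. Among 46 tested genes 9 were higher (19.6%) and 2 lower (4.35%), beside 9.63% and 4.91% of all tested genes. A run of related genes on chromosome 2 held 5 of the 9. AT2G04050 (1337180 to 1339468, minus strand) had 315 and 307 CPM in hot3-3, against 18.7 and 10.4 CPM in WT. AT2G04070 (1353755 to 1355883, minus strand) had 53.7 and 50.4 CPM in hot3-3, against 1.48 and 0.578 CPM in WT. DTX1, AT2G04080 and AT2G04100 rose by 1.52, 1.52 and 1.58 on the log2 scale. Read pairs that fit more than 1 of these close relatives were not counted, which makes each level uncertain. Of 15 tested laccases, LAC7, LAC3 and LAC1 were higher and none was lower. Of 199 tested F-box genes 45 were higher (22.6%) and 5 lower (2.51%), beside 9.63% and 4.91% of all tested genes. The F-box family has 653 members, of which 281 had no count in hot3-3 or WT, so that the limit given for the DUF295 genes holds for this share too.

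Some higher genes differed widely between the hot3-3 libraries. Of the 2002 higher genes 115 (5.74%) were at least 2-fold higher in hot3-3 replicate 2 than in replicate 1, beside 1.27% of all tested genes, and 42 were at least 3-fold higher. The cold response factor CBF1 (AT4G25490) had 4.00 and 32.7 CPM in hot3-3, against 0.554 and 0.674 CPM in WT. The zinc finger STZ (AT1G27730) had 119 and 387 CPM in hot3-3, against 11.3 and 12.2 CPM in WT, and the deadenylase CAF1a (AT3G44260) had 27.0 and 208 CPM, against 6.46 and 10.9 CPM in WT. WRKY46 (AT2G46400) had 11.6 and 41.5 CPM in hot3-3, against 2.83 and 2.07 CPM in WT. These genes, chosen for the gap, lay above WT in both hot3-3 libraries, as did every gene called higher. The median log2 fold change of the 42 was 3.25 with all libraries. It was 3.99 without hot3-3 replicate 1 and 1.80 (0.68 to 3.85) without replicate 2. The order of these medians was set in advance, since the genes were chosen with replicate 2 above replicate 1.

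**Figure D5:**
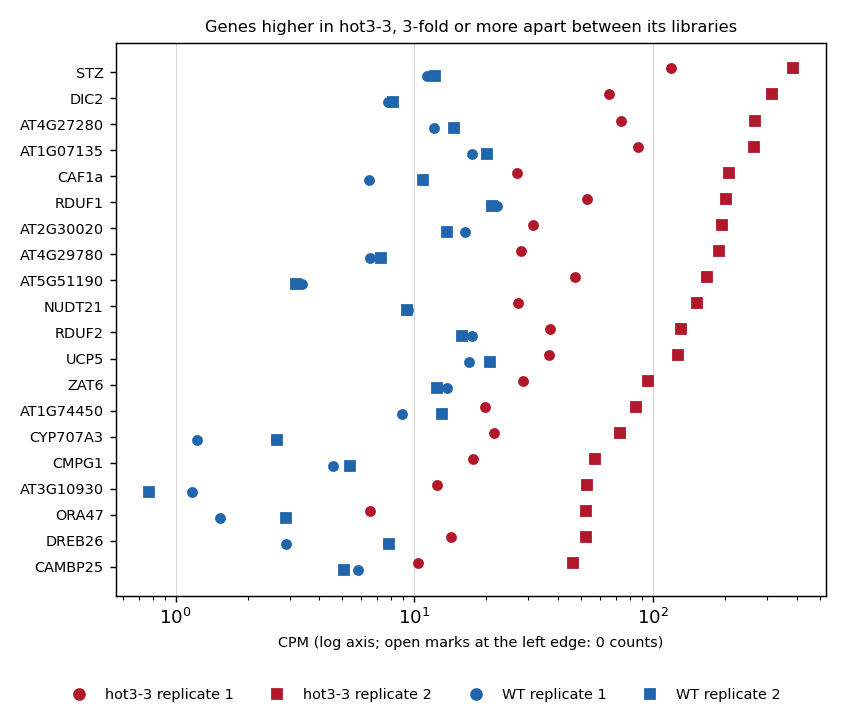
Normalised counts (CPM, log axis) in hot3-3 (red) and WT (blue) libraries of the 20 genes with the highest level in hot3-3 replicate 2 among the 42 that were called higher and differed at least 3-fold between the hot3-3 libraries. The WT libraries lie close together for most genes, while hot3-3 replicate 2 (squares) lies well to the right of replicate 1 (circles).

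Set directly against hot3-2, 178 genes were higher in hot3-3 (0.856% of those tested) and 73 lower (0.351%), 251 in all (1.21%). Of the genes called against WT, 107 were also higher in hot3-3 than in hot3-2 and 27 lower. HOT3 itself averaged 233 ± 53.5 CPM in hot3-3 (SD, n = 2) and 89.2 ± 10.2 CPM in hot3-2 (SD, n = 3), a log2 difference of 1.39 ± 0.14 (SE, edgeR adjusted P = 0.00107). For the pathways described above, the anthocyanin genes DFR (1.72) and PAP1 (1.75), the iron genes IRT1 (1.69) and FRO2 (2.01) and the repressor FLC (1.02) were higher in hot3-3 than in hot3-2, as log2 differences, and SOC1 (-1.03) was lower. ANAC044 (0.53), PSBR (-0.32) and NOP56 were not called in this contrast. The peroxidase AT1G49570 had 0.867 and 1.34 CPM in hot3-3, against 23.3 CPM on average in hot3-2, and WT lay between them at 6.40 and 5.68 CPM.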

How the data were processed

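Counts per gene were deposited for 7 libraries (2 hot3-3, 2 WT and 3 hot3-2). According to the methods and labels, the authors trimmed 150-base read pairs with cutadapt, placed them on TAIR10 with STAR and, with featureCounts version 2.0.3, made a count for each gene of the pairs that mapped properly and to 1 place. The labels name cutadapt 4.2 and STAR 2.7.10b. The strand setting and annotation release are not given in the sources used here.

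The deposited counts were tested with edgeR 4.0.16 in R 4.3.3 by its quasi-likelihood F test, fitted to all 7 libraries so that they shared 1 estimate of the spread. Genes were kept by filterByExpr with a minimum count of 10, libraries were scaled by TMM and P values were adjusted by Benjamini-Hochberg over all 20795 genes. Where a gene had 3 counts or fewer in each WT library, a fold is given against a floor of 3 counts per library. Total counts of 14090881 to 34696683 set the precision, and folds against the floor cover counting error only. Counts were also simulated from the fitted means and the fitted spread, with 200 genes changed, far fewer than were called here. These averaged above 2 CPM and had a log2 change of 2, in equal numbers up and down. Of them 98% were recovered, with 2 false calls among 20600 genes. Smaller changes, changes in weaker genes and gaps between libraries beyond the fitted spread were not simulated.

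Named genes were the eIF5B family, the 12 largest rises and falls among called genes whose libraries did not overlap and which averaged 5 CPM or more, the 10 largest rises and falls in CPM, the 3 smallest P values of each list or family, other list members, and the 5 largest differences from hot3-2 in each direction. Members and lists were chosen with earlier results of these data known. Of 512 list entries 24, whose name and locus could not be matched in RefSeq, were left out. The DUF295, MATE, laccase and F-box families and genes named for a motif or a library gap were chosen after their values were seen. Motifs were sought on both strands in the 250 bases before annotated starts. The genome and annotation were those of RefSeq TAIR10.1, in which 99.4% of 27445 matched genes had the exonic length given in the files. Alternatives were another scaling, DESeq2 1.42.0, no filter, the replicate number as a block, equal depth, the hot3-3 and WT libraries only, each library left out, and another threshold.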

Additional observations from a re-analysis of the deposited data

Results flagged for a closer look

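The following genes differed between hot3-3 and hot3-2 by the direct edgeR test (adjusted P below 0.01 and a log2 difference of at least 1 in size). Each value is the log2 difference, hot3-3 minus hot3-2. HOT3 itself was higher in hot3-3 by 1.39.

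Among the largest rises over WT, the values were 1.05 for AT1G30170, 1.11 for AT2G18190, 1.06 for AT2G24255, 1.56 for AT4G29200, 1.02 for AT2G18720, 3.79 for AT5G24240 and 2.03 for CYP82G1. The DUF295 gene AT5G53230 had 1.48. These genes were higher than WT in both alleles and higher still in hot3-3.

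Of the 5 largest differences in each direction, AT5G24240 is given above. The others higher in hot3-3 were CYP71B29 at 5.0, CYP82C4 at 3.9, CRU3 at 3.61 and CRA1 at 3.45. CYP71B29, a cytochrome P450, had 10.5 and 10.4 CPM in hot3-3, against 0.33 CPM on average in hot3-2, and 9.90 and 8.91 CPM in WT, so that hot3-2 was the genotype that differed from WT. Those lower in hot3-3 were AT1G64795 at -5.51, AT1G49570 at -4.34, AT1G50040 at -3.19, AT1G75945 at -2.9 and AT1G62420 at -2.56. AT1G64795 lies inside AT1G64790 on the other strand, so its count is uncertain. CRA1 and CRU3 are seed storage genes whose levels also differed between libraries of 1 genotype.

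In the anthocyanin path the values were 1.72 for DFR, 1.75 for PAP1, 1.56 for TT8 and 1.55 for TT19, and in iron uptake 1.69 for IRT1 and 2.01 for FRO2. The flowering genes SOC1 and FLC had -1.03 and 1.02. Among defence and senescence genes VSP2 had 1.18, VSP1 2.26, WRKY53 1.04, SAG13 1.62 and the receptor-like kinase gene CRK6 1.36. The dark-induced gene SEN1 had -1.74 and the cold and abscisic acid gene KIN1 1.48. The root gene THAS1 had 1.02, the peroxidase gene AT2G18150 1.13, and the SAUR genes AT1G29430 and AT4G34760 had -1.79 and -2.13.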

How the results depend on the processing

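The number of genes called higher in hot3-3 than in WT, and of genes called lower in hot3-3 than in WT, stayed within 1.5 times with all choices but that of the threshold. Higher genes numbered 1675 with the hot3-3 and WT libraries only and 2097 with no filter on low counts, and lower genes 907 and 1055. These are totals, and the genes behind them were not all the same. Of the 2002 higher and 1020 lower genes, 1669 and 874 were also called with the hot3-3 and WT libraries only. Part of the calls also changed when a WT or hot3-3 library was left out, which leaves 1 library in that group. Without a limit on the fold and with an adjusted P below 0.05 in edgeR, 5612 genes were higher and 5004 lower. With each library left out in turn, 1682 to 2091 genes were higher and 891 to 1052 lower, and in no alternative was a gene called in the opposite direction. The replicate numbers were shared by hot3-3 and WT but did not pair the libraries by the labels, and deviations from the group means correlated at 0.0314. With the replicate number as a block, 1987 genes were higher and 976 lower, and with the block and the hot3-3 and WT libraries only, a choice made after seeing the data, 1961 and 1030. The DESeq2 Wald test called 1905 higher and 997 lower genes, edgeR with DESeq2 size factors 1982 and 1043, and edgeR at equal depth 1905 and 976.

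The log2 fold change of HOT3 was 0.20 to 0.67 with each library left out. The median of the jasmonate and ethylene list, -0.25, ran from -0.52 (without hot3-3 replicate 2) to 0.33 (without WT replicate 2), and was 0.07 without hot3-3 replicate 1. The median of the mitochondrion-encoded genes, 0.24, was -0.47 without hot3-3 replicate 2 and 0.55 without hot3-3 replicate 1. The cause was not tested. Many of the 209 named genes were picked by large changes or small P values, which favours a stable direction. Of these 209 genes none changed direction in any alternative. At most 12 lost their call in any 1 of them, without WT replicate 1, and 8 did without WT replicate 2. With 2 libraries a group, differences under 2-fold and genes of a few counts are poorly resolved.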
